A study of Homo sapiens with 12 samples.

Results

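The genes described here are 9 immediate early transcription factors and related nuclear regulators, EGR1, EGR3, FOS, FOSB, FOSL1, JUN, JUNB, IER2 and NR4A1, found by symbol among the 26125 entries of the deposited expression table, each in 1 entry. They were measured by RNA sequencing in Caco-2, an established line from a human colon adenocarcinoma whose cells take on features of enterocytes once confluent. Monolayers were grown for 21 days on porous inserts and kept in a buffered salt solution, and each of 4 groups had 3 libraries. The co-treatment group received ochratoxin A (OTA), a mould toxin that contaminates food, at 15 µmol/L together with Bacillus subtilis CW14, the OTA group received the toxin alone at 15 µmol/L, the CW14 group received the bacteria alone, and the control group received neither. All 4 groups were otherwise cultured alike, the agents were added to the apical side, and the length of exposure is not given in the labels. The bacterial density in the labels had lost its formatting and is not printed here. Nothing in the labels says that the 3 libraries of a group came from separate cultures, so p-values measure the spread between these libraries, which may be technical.

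Immediate early genes are transcribed within minutes of a growth factor, stress or wounding signal, without new protein synthesis, and their short-lived mRNAs disappear soon after the signal ends. Signals that run through the RAS and MAP kinase cascade reach them through serum response factor and its ETS partners, which bind CArG boxes, and through CREB and ATF proteins, which bind cyclic AMP response elements (CRE). FOS, FOSB and FOSL1 pair with JUN or JUNB to form the dimeric factor AP-1, EGR1 and EGR3 are zinc finger factors, NR4A1 is an orphan nuclear receptor, and IER2 is a nuclear protein with a less well defined role.

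The stretch of 150 bases before the transcription start is shown for EGR1 and for the 2 FOS and 2 JUN family genes that had an entry in RefSeq's promoter table (GRCh38.p14). Whether these stretches have a part in the fall of the genes with OTA was not tested. Capitals mark the CArG box, the CRE core TGACG, the spaced AP-1 motif TGANNTCA and the TATA box TATAAA, on either strand, 5′ to 3′ along the gene.
EGR1, chr5:138465329-138465478 (+ strand): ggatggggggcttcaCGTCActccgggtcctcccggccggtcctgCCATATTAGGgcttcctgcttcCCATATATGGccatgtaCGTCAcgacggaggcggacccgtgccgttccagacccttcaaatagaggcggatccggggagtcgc
FOS, chr14:75278678-75278827 (+ strand): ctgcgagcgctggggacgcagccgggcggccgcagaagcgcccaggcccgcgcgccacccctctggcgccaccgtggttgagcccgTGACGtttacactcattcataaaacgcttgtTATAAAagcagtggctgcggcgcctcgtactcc
FOSB, chr19:45467846-45467995 (+ strand): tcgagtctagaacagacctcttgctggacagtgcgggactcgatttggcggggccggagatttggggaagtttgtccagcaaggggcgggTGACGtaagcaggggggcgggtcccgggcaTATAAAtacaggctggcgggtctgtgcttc
JUN, chr1:58784048-58784197 (- strand): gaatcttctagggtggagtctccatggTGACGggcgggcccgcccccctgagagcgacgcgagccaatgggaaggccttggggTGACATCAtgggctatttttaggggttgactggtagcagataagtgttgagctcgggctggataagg
JUNB, chr19:12791336-12791485 (+ strand): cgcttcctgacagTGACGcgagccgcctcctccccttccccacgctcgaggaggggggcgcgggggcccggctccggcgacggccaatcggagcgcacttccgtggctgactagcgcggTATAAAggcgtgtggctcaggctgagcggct

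Of the 9 genes, 7 matched that table with 8 windows, NR4A1 having 2, and the 250 bases before each start were searched. The EGR1 window held 2 CArG boxes, at 105 to 96 and 83 to 74 bases before the start, and no other window of the 8 held one. A CArG box was found in 1.16% of the 35116 windows of the whole table. The CRE core TGACG was in 6 of the 8 windows, those of EGR1, FOS, FOSB, IER2, JUN and JUNB, and in 21.2% of all windows. TATAAA was in 3 of the 8 windows, those of FOS, FOSB and JUNB, and in 10.7% of all windows. The JUN window held TGANNTCA at 67 to 60 bases before the start, a motif found in 10.1% of all windows, which also covers the full CRE. The letters TGACGTCA (1.65% of all windows), TGANTCA (6.57%) and GCGTGGGCG (0.720%), the last an EGR motif, did not occur in the 8 windows. The 2 NR4A1 windows, which are not shown, held none of the motifs searched. A match is a description of the letters and not a measured binding site, and the windows end 250 bases before the start. In the hg19 coordinates of the deposited table the genes lie at chr5:137801179-137805004 (EGR1), chr14:75745479-75748937 (FOS), chr19:45971251-45978437 (FOSB), chr11:65659605-65667997 (FOSL1), chr1:59246461-59249785 (JUN), chr19:12902308-12904125 (JUNB), chr19:13261280-13265718 (IER2) and chr12:52416614-52453291 (NR4A1).

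Values are FPKM, fragments scaled by the authors to transcript length and library size, so levels of different genes can be set side by side. Differences were tested with limma on log2(FPKM + 1) for the 12928 genes that averaged 1 FPKM or more over the 12 libraries, with 1 fit to all groups. Calls needed a Benjamini-Hochberg adjusted p below 0.05. Of the 9 genes 8 passed the filter, and EGR3 did not. Relative depth, read from the steps of low FPKM values, ranged from 0.470 to 1.602 of control replicate 1, with co-treatment replicate 3 the lowest. That library also stood apart by its residual SD, 0.720 on the log2 scale against 0.374 to 0.519 in the other libraries, and by 13 zeros among genes with a median over 5 FPKM, against 1 to 4. Of 14 enterocyte and epithelial markers 13 had a mean of at least 1 FPKM, the exception being SI, which encodes sucrase-isomaltase, at 0.0753. The leukocyte marker PTPRC, the fibroblast markers COL1A2 and DCN and the endothelial marker KDR were listed at 0 in the 12 libraries. Other markers of the same lists were not at 0, with means over the 12 libraries of 9.45 FPKM for CD14 and 82.6 for CD68 (leukocyte), 1.92 for COL1A1 and 0.769 for PDGFRB (fibroblast) and 1.31 for PECAM1 (endothelial). The summed level of the 14 enterocyte markers was mostly APOA1 and KRT8, with means of 5788 and 2444 FPKM over the 12 libraries. This sum ranged over 10098 to 26810 FPKM with co-treatment, 10788 to 11671 with OTA, 8334 to 9221 with CW14 and 9707 to 10250 FPKM in controls. That of the 5 leukocyte markers, mostly CD68, ranged over 62.8 to 90.4 FPKM with co-treatment, 109 to 136 with OTA, 71.9 to 90.3 with CW14 and 81.5 to 99.7 FPKM in controls. Their part in the differences below was not tested. In RNA from whole monolayers, fewer expressing cells and less RNA per cell cannot be told apart.

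In untreated monolayers most of these genes were abundant. JUNB averaged 467 ± 74.6 FPKM, JUN 445 ± 40.0 and FOS 427 ± 64.7 (SD, n = 3, as for every ± on FPKM below), and these 3 overlapped in their order. IER2 at 319.9 ± 11.7, EGR1 at 270.2 ± 18.4, NR4A1 at 164 ± 17.0, FOSL1 at 67.6 ± 7.75 and FOSB at 42.7 ± 3.51 followed, each separate from its neighbour. EGR3 was near the floor at 0.620 ± 0.310 FPKM. Only 146 entries of the table had a higher control mean than JUNB, and 13438 had a higher one than EGR3. The order changed with treatment. With CW14, FOS lay between NR4A1 and FOSL1 and overlapped both, below JUNB, JUN, IER2 and EGR1. With OTA, JUN was first and separate from JUNB, while JUNB, IER2 and FOS overlapped. In the co-treatment group IER2 led at 57.3 ± 4.27 FPKM, separate from JUN at 37.0 ± 11.9, which overlapped JUNB at 34.3 ± 0.496.

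**Figure D1:**
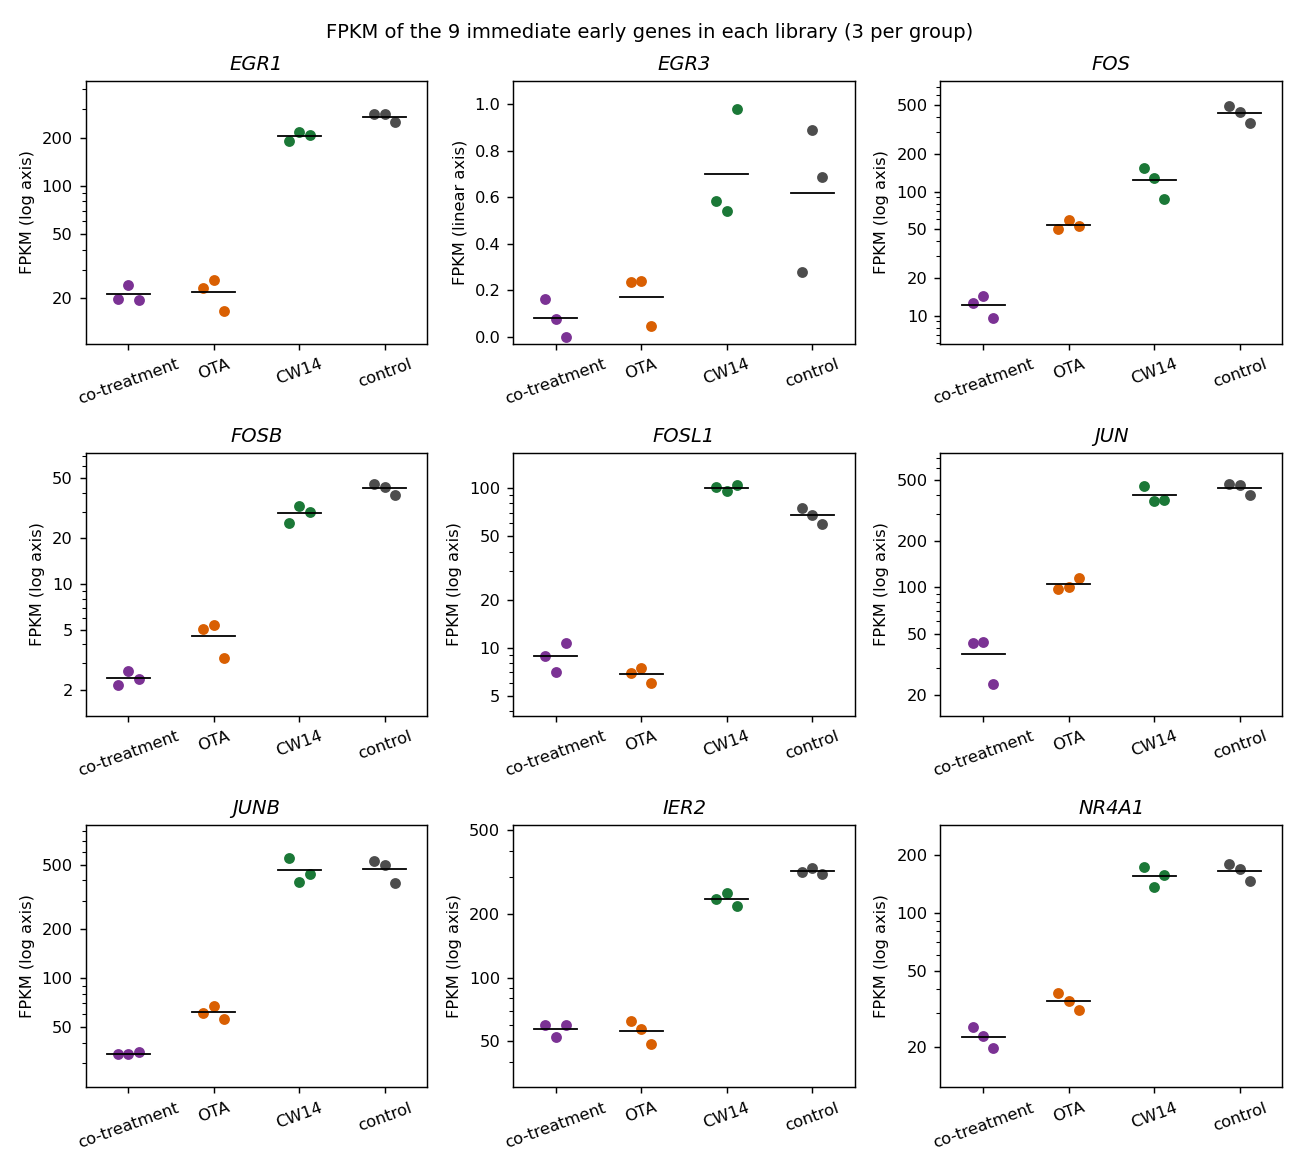
FPKM of each of the 9 genes in every library (points, 3 per group) with the group mean (bar), on a log axis except for EGR3, whose linear axis shows the co-treatment library listed at 0. In the 8 genes other than EGR3 the co-treatment and OTA libraries lie below the CW14 and control libraries. FOS and FOSB are the genes whose 4 groups are all separate, lowest with co-treatment, then OTA, then CW14, and highest in controls. The FOS means step from 12.2 to 53.7, 124 and 427 FPKM in that order, so FOS does not form 2 pairs of groups.

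OTA against control shows what the toxin alone was followed by. The 8 tested genes were called lower, against a background of 12.9% of all 12928 genes called lower and 17.7% called in either direction. Their OTA means were between 8.12% and 23.6% of the control means, and the OTA libraries of each lay below its controls without overlap, as in 25.7% of all genes. The median log2 difference of the 8 was -2.93, against 0.03 over all genes tested. Of all genes called, 1665 were lower and 623 higher, and after centring each library on its median 1342 were lower and 1153 higher.

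Of the zinc finger factors, EGR1 fell furthest. Its levels were 23.1, 26.1 and 16.6 FPKM with OTA, against 281, 281 and 249 FPKM in controls, with 16 genes of the table showing a lower log2 difference. EGR1 was 12.3-fold lower (log2 difference -3.58, SE 0.16, adjusted p = 4.6e-07). EGR3 had 0.234, 0.238 and 0.0451 FPKM with OTA, against 0.281, 0.891 and 0.688 FPKM in controls. The EGR3 libraries did not overlap between the 2 groups, and with no filter on low values it was not called (log2 difference -0.45, adjusted p = 0.0945).

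FOS, FOSB and FOSL1 fell as well. FOS, the prototype AP-1 subunit, had 49.6, 59.1 and 52.4 FPKM with OTA, against 486, 437 and 358 FPKM in controls. That is a 7.96-fold lower mean (log2 difference -2.96, SE 0.21, adjusted p = 3.14e-06). FOSB, its close relative, had 5.06, 5.35 and 3.28 FPKM with OTA, against 45.6, 43.6 and 38.8 FPKM in controls (9.35-fold lower, log2 difference -2.99, SE 0.17). FOSL1, also called FRA1, a subunit that lacks the strong activation domain of FOS, had 6.92, 7.44 and 5.997 FPKM with OTA, against 75.1, 68.1 and 59.6 FPKM in controls (9.96-fold lower, log2 difference -3.14, SE 0.15). The 3 OTA libraries of each gene lay far below the lowest control.

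Both JUN and JUNB fell. JUN, which can also pair with itself, had 98.2, 100.5 and 116 FPKM with OTA, against 472, 464 and 399 FPKM in controls. Its mean was 4.25-fold lower (log2 difference -2.08, SE 0.21, adjusted p = 3.87e-05). JUNB, a weaker activator than JUN, had 61.4, 67.5 and 55.7 FPKM with OTA, against 523, 496 and 383 FPKM in controls (7.59-fold lower, log2 difference -2.90, SE 0.16). Of the 8 genes, JUN had the smallest fall with OTA and EGR1 the largest. IER2 had 62.5, 57.0 and 48.4 FPKM with OTA, against 316, 333 and 310.3 FPKM in controls (5.72-fold lower, log2 difference -2.50, SE 0.12). NR4A1, whose product also acts outside the nucleus in cell death, had 38.4, 34.9 and 31.1 FPKM with OTA, against 179, 168 and 146 FPKM in controls (4.71-fold lower, log2 difference -2.20, SE 0.14). Centring on the median moved the OTA against control differences by 0.11 upward on the log2 scale, which left EGR1 at -3.48 and JUN at -1.97, and the 8 genes stayed called.

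CW14 against control, which uses the same control libraries, shows what the bacteria alone were followed by. FOS fell, and it was the only one of the 8 tested genes called, against a background of 0.147% of all genes called lower and 0.364% in either direction. FOS had 155, 128 and 87.8 FPKM with CW14, against 486, 437 and 358 FPKM in controls. No CW14 library reached the lowest control. FOS was 3.45-fold lower (log2 difference -1.81, SE 0.21, adjusted p = 0.00602), and 20 genes of the table had a lower log2 difference. Without control replicate 1 the FOS call was lost (log2 difference -1.71, adjusted p = 0.0532).

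The other 7 genes were not called with CW14, though 4 of them did not overlap the controls. FOSL1 stood above the controls, with 101, 95.6 and 104 FPKM with CW14, against 75.1, 68.1 and 59.6 FPKM in controls (log2 difference 0.57, SE 0.15, adjusted p = 0.2995). Of all genes 9.66% were higher without overlap in this comparison and 10.9% lower. EGR1, FOSB and IER2 were the 3 that lay below the controls without overlap. EGR1 had 191, 216 and 206 FPKM with CW14, against 281, 281 and 249 FPKM in controls (log2 difference -0.40, SE 0.16, adjusted p = 0.678). FOSB averaged 29.3 ± 3.89 FPKM with CW14 and 42.7 ± 3.51 FPKM in controls (log2 difference -0.53, adjusted p = 0.476). IER2 averaged 237 ± 16.8 FPKM with CW14 and 319.9 ± 11.7 FPKM in controls (log2 difference -0.43, adjusted p = 0.355). With library weights estimated by limma, FOSL1 (adjusted p = 0.018) and IER2 (adjusted p = 0.0375) were called as well.

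JUN, JUNB and NR4A1 overlapped their controls. JUNB had 551, 390.3 and 439 FPKM with CW14, against 523, 496 and 383 FPKM in controls (log2 difference -0.02, SE 0.16). JUN had 457, 365 and 374 FPKM with CW14, against 472, 464 and 399 FPKM in controls (log2 difference -0.16, SE 0.21). NR4A1 differed by -0.08 (SE 0.14). The JUNB difference turned positive with quantile normalization and with upper-quartile scaling, and that of NR4A1 with quantile normalization.

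Co-treatment against OTA shows the genes when bacteria were present with the toxin. Of the 8 genes 5 were called lower, against 8.22% of all genes called lower and 16.0% in either direction. The median log2 difference of the 8 was -0.64, against 0.03 over all genes.

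FOS fell most among them. It had 12.6, 14.5 and 9.49 FPKM with co-treatment, against 49.6, 59.1 and 52.4 FPKM with OTA. The lowest OTA library was above the highest co-treatment library (4.41-fold lower mean, log2 difference -2.07, SE 0.21, adjusted p = 0.00158). FOSB had 2.18, 2.66 and 2.37 FPKM with co-treatment, against 5.06, 5.35 and 3.28 FPKM with OTA (1.90-fold lower, log2 difference -0.69, SE 0.17, adjusted p = 0.0212). FOSL1 was not called. It had 8.83, 7.03 and 10.7 FPKM with co-treatment, against 6.92, 7.44 and 5.997 FPKM with OTA, which overlap (log2 difference 0.33, SE 0.15, adjusted p = 0.161). Without co-treatment replicate 2 it was called higher (log2 difference 0.47, adjusted p = 0.0394).

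JUN fell strongly too. JUN had 43.6, 44.2 and 23.3 FPKM with co-treatment, against 98.2, 100.5 and 116 FPKM with OTA (2.83-fold lower, log2 difference -1.53, SE 0.21, adjusted p = 0.00265). Its lowest value was in co-treatment replicate 3, the library that stands apart, and without that library the log2 difference was -1.23 (adjusted p = 0.000782). JUNB had 34.0, 34.0 and 34.9 FPKM with co-treatment, against 61.4, 67.5 and 55.7 FPKM with OTA (1.79-fold lower, log2 difference -0.82, SE 0.16, adjusted p = 0.00797). NR4A1 had 25.3, 22.9 and 19.8 FPKM with co-treatment, against 38.4, 34.9 and 31.1 FPKM with OTA (1.54-fold lower, log2 difference -0.60, SE 0.14, adjusted p = 0.0189). The 5 called genes were lower without overlap between the 2 groups, as were 16.6% of all genes.

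EGR1 and IER2 overlapped between the toxin groups. EGR1 had 19.7, 24.1 and 19.5 FPKM with co-treatment, against 23.1, 26.1 and 16.6 FPKM with OTA (log2 difference -0.04, SE 0.16). IER2 had 59.9, 52.4 and 59.6 FPKM with co-treatment, against 62.5, 57.0 and 48.4 FPKM with OTA (log2 difference 0.04, SE 0.12). EGR3 had 0.163, 0.0777 and 0 FPKM with co-treatment, against 0.234, 0.238 and 0.0451 FPKM with OTA, the 0 being in co-treatment replicate 3. With only the 2 compared groups fitted, FOS alone was called (adjusted p = 0.0386), and the adjusted p of JUN, JUNB, FOSB and NR4A1 were 0.0562, 0.0552, 0.127 and 0.105. The FOSB call was also lost without OTA replicate 1, OTA replicate 2 or co-treatment replicate 1 (adjusted p up to 0.089), and the NR4A1 call without OTA replicate 1 or 2 (adjusted p up to 0.071).

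**Figure D2:**
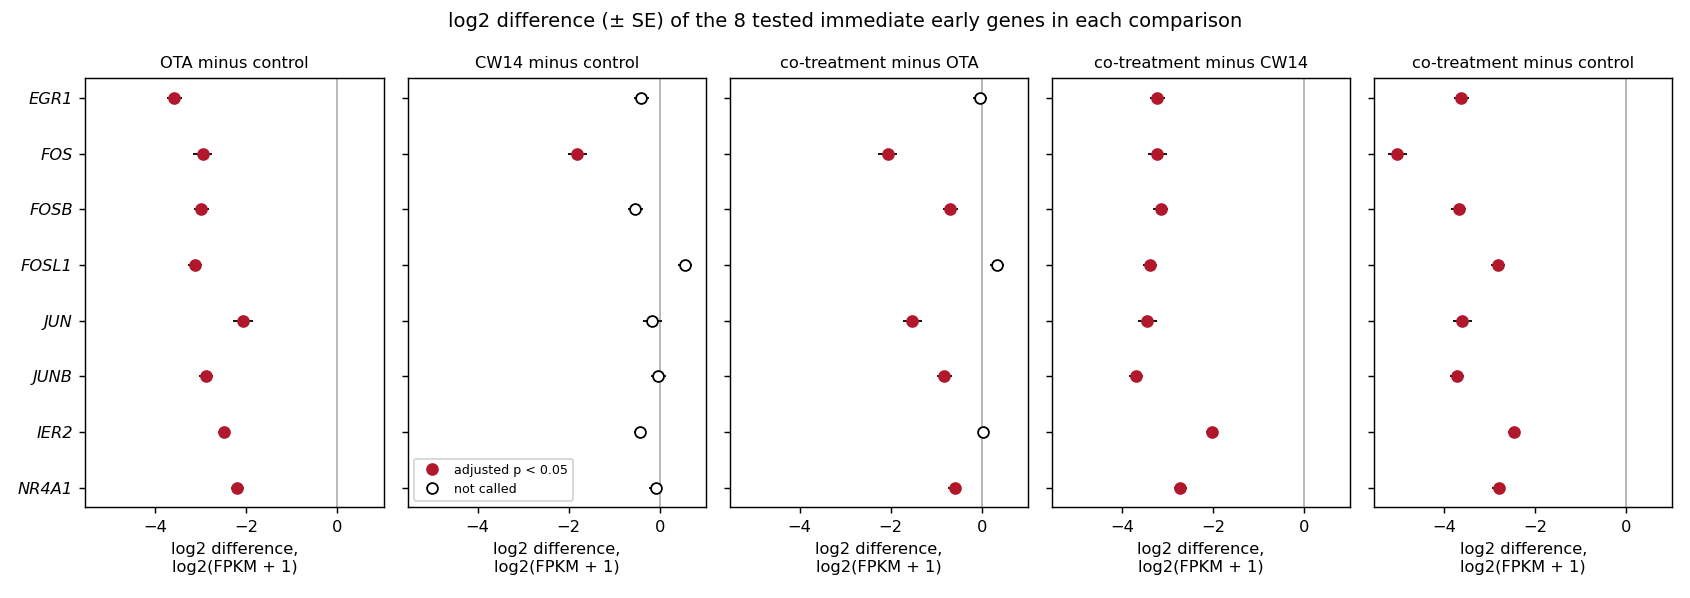
Log2 differences with their SE for the 8 tested genes, 1 panel per comparison, with filled points for genes called at an adjusted p under 0.05. The 8 genes were called lower in each comparison of a group with OTA against a group without it, 1 was called with CW14 alone and 5 were called in co-treatment against OTA.

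The 2 remaining pairs, which share the co-treatment libraries with the comparison above, set the toxin with bacteria against bacteria alone and against neither. In co-treatment against CW14 the 8 genes were called lower, against 17.5% of all genes lower and 32.3% in either direction. JUNB had the largest difference, 34.3 ± 0.496 FPKM with co-treatment and 460.1 ± 82.1 FPKM with CW14 (13.4-fold lower, log2 difference -3.69, SE 0.16, adjusted p = 1.07e-07). FOSL1 averaged 8.85 ± 1.82 FPKM with co-treatment and 100.2 ± 4.19 FPKM with CW14 (11.3-fold lower, log2 difference -3.38, SE 0.15). IER2 had the smallest, 57.3 ± 4.27 FPKM with co-treatment and 237 ± 16.8 FPKM with CW14 (4.14-fold lower, log2 difference -2.03, SE 0.12).

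In co-treatment against control the 8 genes were called lower, against 16.8% of all genes lower and 28.8% in either direction. FOS averaged 12.2 ± 2.53 FPKM with co-treatment and 427 ± 64.7 FPKM in controls, 35.1-fold lower (log2 difference -5.03, SE 0.21, adjusted p = 1.02e-07). Only 11 genes of the table had a lower log2 difference than FOS here. FOSB was 17.8-fold, JUNB 13.6-fold, EGR1 12.8-fold and JUN 12.0-fold lower. FOSL1 was 7.64-fold, NR4A1 7.23-fold and IER2 5.58-fold lower. With no filter on low values EGR3 was called lower in co-treatment against control (log2 difference -0.57, adjusted p = 0.0283) and against CW14 (log2 difference -0.65, adjusted p = 0.0148).

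The interaction asks whether the difference made by CW14 was the same with and without OTA. JUN was the 1 gene of the 8 called, against 1.49% of all genes called with a negative interaction and 3.33% in either direction. The difference of JUN with CW14 was -1.53 when OTA was present and -0.16 when it was not (interaction -1.37, SE 0.30, adjusted p = 0.0367). This call was lost without any single control, CW14 or OTA library (9 of the 12 libraries, adjusted p up to 0.108) and with no filter on low values (adjusted p = 0.0602). Without co-treatment replicate 3 it was -1.07 (adjusted p = 0.00584). JUNB had an interaction of -0.80 (SE 0.22, adjusted p = 0.063), which was called without co-treatment replicate 3 (-0.81, adjusted p = 0.0342). It was also called with quantile normalization (-0.85, adjusted p = 0.0432) and with library weights estimated by limma (-0.86, adjusted p = 0.00731). NR4A1 had an interaction of -0.52 (SE 0.20, adjusted p = 0.146).

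The difference of FOS with CW14 was -2.07 with OTA and -1.81 without it (interaction -0.26, SE 0.30, adjusted p = 0.618), which does not show that the 2 were equal. The interactions of EGR1 and IER2 were positive, 0.36 (SE 0.23) and 0.47 (SE 0.17), with adjusted p of 0.344 and 0.129. With library weights estimated by limma that of IER2 was called (0.51, adjusted p = 0.021), opposite in sign to JUN. Those of FOSB and FOSL1 were -0.16 (SE 0.24) and -0.24 (SE 0.22).

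**Figure D3:**
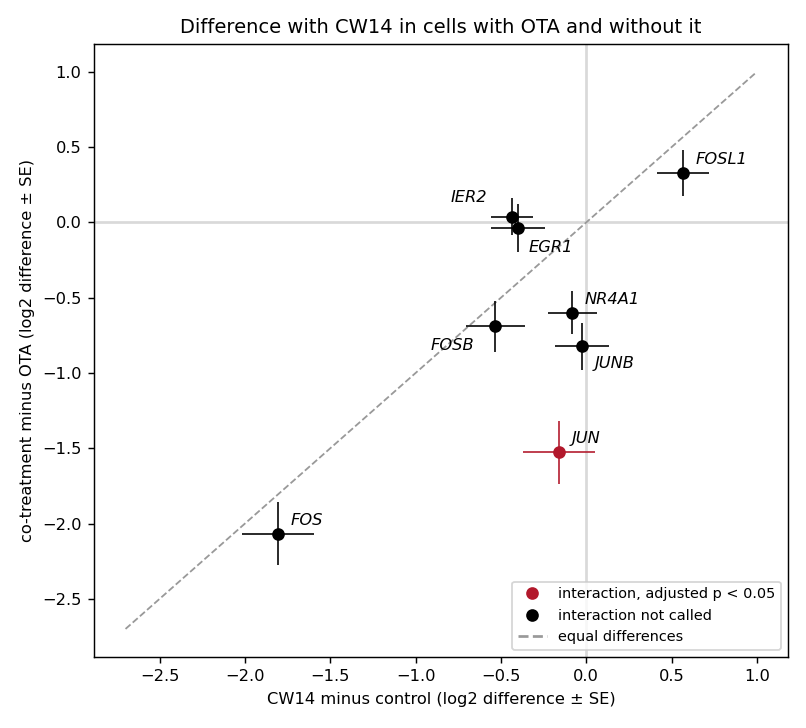
Log2 difference with CW14 among cells given OTA (co-treatment minus OTA, vertical) against that among cells without OTA (CW14 minus control, horizontal) for the 8 tested genes, with SE bars and a dashed line where the 2 are equal. JUN, the only gene with a called interaction, lies below the line, at -1.53 with OTA and -0.16 without it, and FOSL1 alone has both values above 0.

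The make-up of the AP-1 families differed between groups. These shares are a description, computed from the FPKM of FOS, FOSB, FOSL1 and FOSL2 and of JUN, JUNB and JUND. The summed FPKM of the FOS family was 39.3 ± 3.96 with co-treatment, 81.1 ± 8.34 with OTA, 299 ± 27.2 with CW14 and 570.1 ± 77.3 in controls. FOS made up 30.8 ± 3.56% of it with co-treatment, 66.3 ± 3.13% with OTA, 40.9 ± 7.78% with CW14 and 74.8 ± 1.26% in controls. Both groups with bacteria thus had a smaller share of FOS than both groups without them. The FOSL1 share was 23.0 ± 6.95% with co-treatment, 8.38 ± 0.479% with OTA, 33.7 ± 3.99% with CW14 and 11.9 ± 0.295% in controls, and was thus larger where bacteria were present. A share also depends on the other members. FOSL1 itself averaged 8.85 FPKM with co-treatment and 6.79 with OTA, which overlap, while FOS averaged 12.2 and 53.7 FPKM. FOSL2 held 40.1 ± 3.90% with co-treatment, 19.7 ± 1.67% with OTA, 15.6 ± 2.47% with CW14 and 5.81 ± 0.566% in controls.

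In the JUN family the sum was 248 ± 22.5 FPKM with co-treatment, 304 ± 10.9 with OTA, 1349 ± 147 with CW14 and 1496 ± 132 in controls. JUND held 70.8 ± 6.82% with co-treatment, 45.2 ± 3.03% with OTA, 36.5 ± 3.07% with CW14 and 39.2 ± 2.40% in controls. Its level was not steady, at 176 ± 32.7 FPKM with co-treatment, 138 ± 13.1 with OTA, 490 ± 30.2 with CW14 and 584 ± 17.5 in controls. The JUN share was 15.3 ± 5.82% with co-treatment and between 29.5% and 34.6% on average in the other groups. JUNB held 13.9 ± 1.15% with co-treatment, 20.2 ± 1.23% with OTA, 33.9 ± 2.32% with CW14 and 31.1 ± 2.35% in controls. EGR1 made up 94.2% to 98.4% of the summed FPKM of EGR1 to EGR4 in the 12 libraries, and NR4A1 95.6% to 98.4% of that of NR4A1 to NR4A3.

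**Figure D4:**
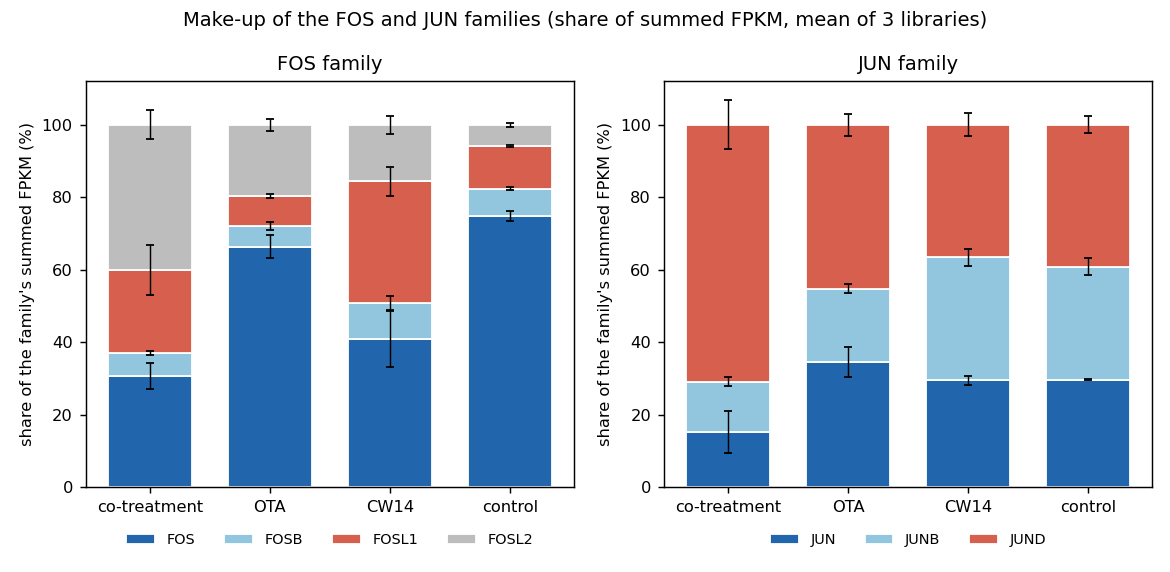
Stacked bars of the mean share of each gene in the summed FPKM of the FOS family (left) and the JUN family (right) per group, with an error bar at the top of each segment for the SD of that gene's share over 3 libraries. FOS takes 30.8% of its family with co-treatment and 74.8% in controls, and JUND takes 70.8% of its family with co-treatment and 39.2% in controls.

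Relatives of the 9 genes fell with OTA as well. Of 9 family relatives 8 were tested and 8 were called lower in OTA against control, with a median log2 difference of -1.44. Of these, EGR2, EGR4 and NR4A2 averaged below 1 FPKM in both groups with OTA and passed the filter through the groups without it. For the counts of this and the following lists in OTA against control, 12.9% of all genes were called lower and 4.82% higher. The lists were chosen with earlier results of these data known, so their counts are a description. As ratios of mean FPKM the relatives were between 1.84-fold (IER5L) and 7.88-fold (IER3) lower. FOSL2 averaged 16.02 ± 2.69 FPKM with OTA and 32.8 ± 1.38 FPKM in controls (2.05-fold lower, log2 difference -1.002, adjusted p = 0.00104). JUND averaged 138 ± 13.1 FPKM with OTA and 584 ± 17.5 FPKM in controls (log2 difference -2.08, adjusted p = 2.35e-06). The stress-induced genes IER3 and IER5 had differences of -2.95 and -2.89. EGR2 averaged 0.403 ± 0.143 FPKM with OTA and 2.42 ± 0.464 FPKM in controls, and NR4A2 0.787 ± 0.232 FPKM with OTA and 4.43 ± 0.759 FPKM in controls. EGR4, near the floor at 0.236 ± 0.166 FPKM with OTA and 1.77 ± 0.750 FPKM in controls, was called at -1.13. IER5L was called at -0.85. In CW14 against control 0 of the 8 were called, and in co-treatment against OTA only IER5 was, at 10.8 ± 3.38 FPKM with co-treatment and 19.5 ± 4.22 FPKM with OTA (log2 difference -0.82, adjusted p = 0.0412). NR4A3 did not pass the filter.

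Other bZIP partners of AP-1 followed in part. With OTA 6 of 8 tested were called lower, 0 higher, with a median of -1.17. ATF3, a stress-induced repressor, averaged 25.4 ± 5.58 FPKM with OTA and 198 ± 7.52 FPKM in controls (log2 difference -2.93). MAFF, a small MAF protein without an activation domain, averaged 33.7 ± 8.03 FPKM with OTA and 193 ± 10.7 FPKM in controls (log2 difference -2.51). Both were also called lower in co-treatment against OTA, ATF3 by -0.72 (adjusted p = 0.0227) and MAFF by -0.62 (adjusted p = 0.0454). ATF3 and MAFK had called interactions of -1.20 (adjusted p = 0.0338) and -0.79 (adjusted p = 0.0389). Of the EGR corepressors, NAB2 averaged 9.21 ± 0.595 FPKM with OTA and 35.0 ± 3.17 FPKM in controls (log2 difference -1.82, adjusted p = 1.25e-05), while NAB1 differed by -0.04 and was not called.

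Of 13 tested SRF, ETS, CREB and coactivator genes, 5 were called lower with OTA and 0 higher, with a median of -0.39. MKL1, an actin-regulated coactivator of SRF, averaged 3.21 ± 0.432 FPKM with OTA and 7.56 ± 1.31 FPKM in controls (log2 difference -1.02, adjusted p = 0.00805). The acetyltransferase EP300 averaged 7.93 ± 1.29 FPKM with OTA and 16.6 ± 0.516 FPKM in controls (log2 difference -0.99, adjusted p = 0.0205). SRF itself, named for its role after its values were seen, had 14.6 ± 1.31 FPKM with OTA and 19.3 ± 1.03 FPKM in controls and was not called (log2 difference -0.39, adjusted p = 0.0792). In CW14 against control and in co-treatment against OTA 0 of the 13 were called.

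Of 24 tested RAS and MAP kinase cascade genes, 2 were called lower and 1 higher with OTA, with a median of -0.08. SOS2, a RAS exchange factor, averaged 4.01 ± 0.254 FPKM with OTA and 9.53 ± 0.969 FPKM in controls (log2 difference -1.07), and the adaptor SHC1 31.4 ± 1.93 FPKM with OTA and 56.2 ± 1.49 FPKM in controls (log2 difference -0.82). MAPK9, a JUN kinase named after its values were seen, was the called gene that rose, to 35.3 ± 0.167 FPKM with OTA, against 22.6 ± 0.224 FPKM in controls. The 3 calls among 24 cascade genes stood beside 17.7% of all genes called, and whether the 2 shares differ was not tested. In co-treatment against OTA, HRAS was called higher, and NRAS and 1 other gene lower, against 7.79% of all genes called higher and 8.22% lower. Co-treatment replicate 3 was the extreme library for HRAS and NRAS, with 14.2, 10.9 and 31.5 FPKM of HRAS and 23.1, 23.9 and 11.8 FPKM of NRAS in the 3 co-treatment libraries.

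Other immediate early genes, among them the ATF3, IER3 and IER5 named above, fell with OTA, 37 of 37 tested being called lower with a median of -2.45. Since this list was chosen with earlier results of these data known, the count is no independent result about such genes. TRIB1, a pseudokinase, had 12.6 ± 3.28 FPKM with OTA and 173 ± 16.5 FPKM in controls, and DUSP1, a MAP kinase phosphatase, 25.7 ± 2.26 FPKM with OTA and 272 ± 6.86 FPKM in controls. In CW14 against control 3 of the 37 were called lower and 1 higher, against 0.217% of all genes called higher. ID1, an inhibitor of basic helix-loop-helix factors, fell to 106 ± 38.4 FPKM with CW14, against 315 ± 20.2 FPKM in controls, and NFKBIA, the inhibitor of NF-kB, rose to 515 ± 119.7 FPKM with CW14, against 215 ± 32.1 FPKM in controls. In co-treatment against OTA 11 were called lower and 2 higher, against 8.22% of all genes called lower and 7.79% higher. DUSP1 had 10.4 ± 4.45 FPKM with co-treatment and 25.7 ± 2.26 FPKM with OTA (log2 difference -1.30, adjusted p = 0.00593), and GEM, a small GTPase, 2.48 ± 0.326 FPKM with co-treatment and 6.87 ± 0.877 FPKM with OTA (log2 difference -1.18, adjusted p = 0.00297).

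Genes known as AP-1 or EGR1 targets were mixed. With OTA 12 of 19 tested were called lower and 1 higher, with a median of -0.98. HBEGF, an EGF family growth factor, averaged 6.26 ± 1.62 FPKM with OTA and 40.7 ± 5.01 FPKM in controls (log2 difference -2.54), and the cytokine LIF 3.23 ± 0.211 FPKM with OTA and 20.5 ± 4.08 FPKM in controls (log2 difference -2.33). With CW14 alone, where 0.217% of all genes were called higher, 2 of the 19 were called, both higher. They were CXCL8, a neutrophil chemokine, at 93.2 ± 55.9 FPKM with CW14 and 3.43 ± 0.967 FPKM in controls, and PLAU, which encodes urokinase, at 22.0 ± 10.8 FPKM with CW14 and 2.16 ± 0.442 FPKM in controls. In co-treatment against OTA 3 were called higher and 1 lower, against 7.79% of all genes called higher and 8.22% lower. PLAU averaged 5.19 ± 2.23 FPKM with co-treatment and 0.656 ± 0.592 FPKM with OTA (log2 difference 1.90, adjusted p = 0.0094), and TNFRSF10B, a death receptor, 54.3 ± 10.9 FPKM with co-treatment and 92.7 ± 10.6 FPKM with OTA (log2 difference -0.77, adjusted p = 0.00943).

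**Figure D5:**
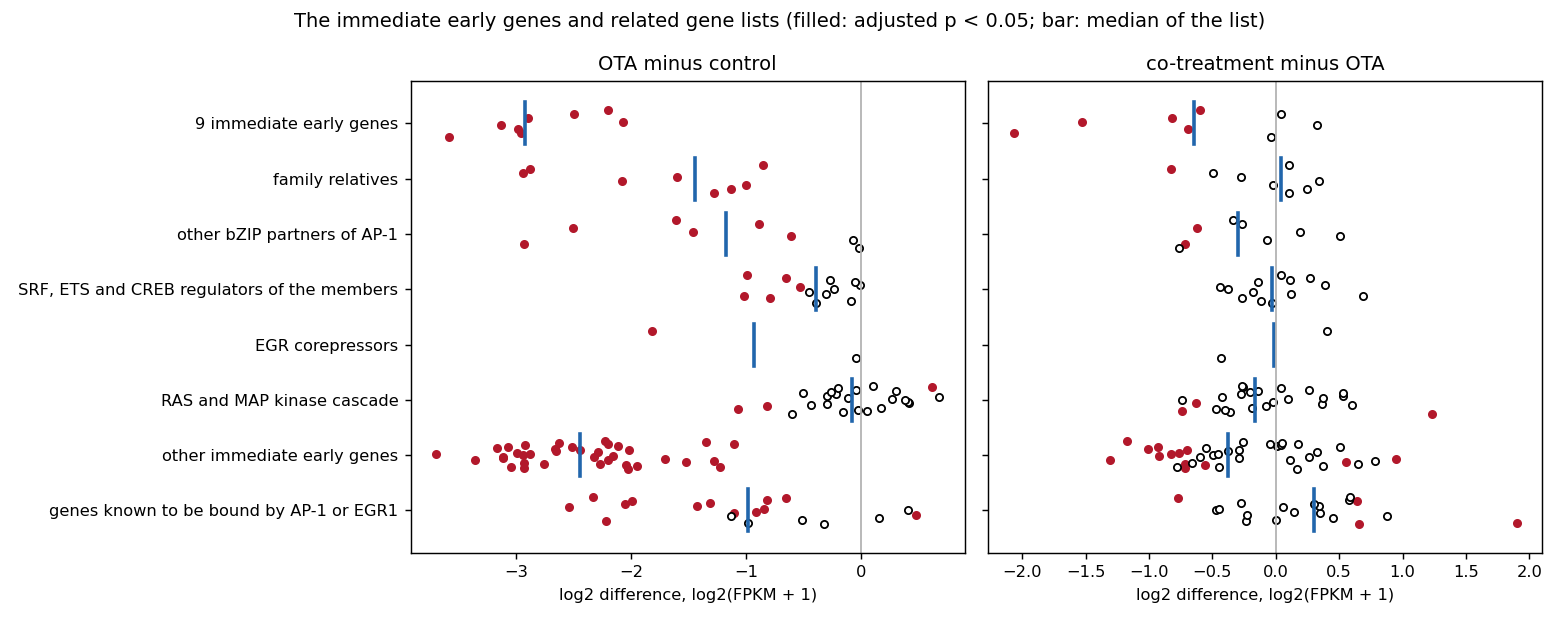
Log2 differences in OTA minus control (left) and co-treatment minus OTA (right) for the 9 genes (8 tested) and 7 lists of related genes, 1 point per tested gene, filled where the adjusted p was under 0.05, with a bar at each list's median. The medians with OTA run from -2.93 for the 9 genes and -2.45 for other immediate early genes to -0.39 for SRF, ETS and CREB regulators and -0.08 for the RAS and MAP kinase cascade.

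Across the 12 libraries the profile of each gene was set beside that of every other tested gene by Pearson's r on log2(FPKM + 1). The r values are a description, since the libraries fall into a set with OTA and a set without it. Among the 8 genes, JUNB and NR4A1 were most alike (r = 0.997) and FOS and FOSL1 least (r = 0.757). The genes outside the 8 with the most similar profiles were BCL2L1 and HERPUD1 for EGR1 (r = 0.992 and 0.991) and DNAJB9 and TXNIP for FOS (r = 0.986 and 0.985). For FOSB they were ZNF165 and CD55 (r = 0.992 each), for FOSL1 EPHA2 and SIK1 (r = 0.997 and 0.995), and for JUN LINC01559 and TP53INP2 (r = 0.993 and 0.989). RND3 and NR1D1 came nearest to both JUNB (r = 0.995 and 0.994) and NR4A1 (r = 0.994 each), and FAM46B and HERPUD1 to IER2 (r = 0.993 each). EPHA2, an ephrin receptor kinase, averaged 13.3 FPKM with co-treatment, 11.5 with OTA, 107 with CW14 and 78.8 in controls, the same order as FOSL1. TXNIP, a thioredoxin-binding protein, averaged 28.5 FPKM with co-treatment, 65.1 with OTA, 185 with CW14 and 345 in controls, the same order as FOS.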

How the data were processed

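RNA was sequenced from 12 Caco-2 libraries, 3 in each of 4 groups, which were taken from the sample titles. Per the labels' protocols, libraries came from a kit not described as strand-specific and were read as pairs of 150 bases. The authors deposited FPKM for each gene in each library. The build is hg19, and Cuffdiff, Cuffnorm, Cufflinks 2.2.1, TopHat2 2.0.13 and cutadapt 1.10 are named, per the submitters' processing notes, which give no role or order. Neither the annotation nor a scaling step across libraries is given in the sources used here. None of the 9 deposited loci overlapped another entry. Absolute depth is unknown, and relative depth was the most common ratio of values under 0.3 FPKM (tolerance 0.01, log2).

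From these values, log2(FPKM + 1) was fitted in limma 3.58.1 (R 4.3.3) with 1 mean for each group and a trended variance. The tests were two-sided with 8 residual degrees of freedom. The fit was tried on simulated data for OTA against control only, with the same spread in every library. That trial does not cover the wider spread of co-treatment replicate 3 or the other comparisons. Because of the added 1, changes of weakly expressed genes come out too small. Folds are ratios of mean FPKM. The 9 genes and the related lists were chosen with earlier results of these data known, and no list was tested as a set. Named were the 9 genes, their relatives and corepressors, the 2 called genes of each other list with the largest difference in a comparison, and the 2 genes most similar to each. The labels do not say that replicate numbers mark a shared batch, so no pairing was used. Deviations from the group means had r from -0.15 to 0.15 over 18 same-numbered pairs and -0.14 to 0.19 over 36 other pairs. With 3 libraries a group this cannot show that pairing is absent. The 22 alternatives were each library left out, a pseudocount of 0.1, no filter, a filter at 5 FPKM, median-centring, quantile normalization, upper-quartile scaling, a fit to the compared groups only, a replicate block, array weights and no intensity trend.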

Additional observations from a re-analysis of the deposited data

Results flagged for a closer look

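JUN differed between the settings in which CW14 was added: its log2 difference with CW14 was -1.53 among cells with OTA (37.0 ± 11.9 FPKM with co-treatment and 105 ± 9.50 FPKM with OTA) and -0.16 among cells without it (399 ± 51.0 FPKM with CW14 and 445 ± 40.0 FPKM in controls). The test of that difference in limma gave an interaction of -1.37 (SE 0.30, adjusted p = 0.0367), and the call depends on single libraries as given with the result.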

How the results depend on the processing

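Results were recomputed under 22 alternatives, 12 of which left out 1 library each. In OTA against control, co-treatment against CW14 and co-treatment against control, the 8 genes stayed lower and called in each of 176 gene-by-alternative fits per comparison (adjusted p up to 0.000467, 0.000911 and 0.000606). The count called in CW14 against control, 1 in the main result, was 3 with array weights and 0 to 1 with a library left out. The count in co-treatment against OTA, 5 in the main result, was 1 with only the compared groups fitted and 3 to 6 with a library left out. For the interaction, 1 in the main result, the count was 0 with no filter, 2 with quantile normalization and 0 to 2 with a library left out. With array weights it was 3, of which 2 were negative and 1, IER2, positive. A pseudocount of 0.1, a filter at 5 FPKM and a fit with no intensity trend each left the counts of the 6 comparisons as in the main result. Signs changed only for differences near 0 that were not called. JUNB in CW14 against control was 0.067 with quantile normalization, 0.023 with upper-quartile scaling, 0.030 with array weights and -0.16 to 0.087 with a library left out. NR4A1 there was 0.013 with quantile normalization and -0.16 to 0.012 with a library left out. In co-treatment against OTA, IER2 was -0.023 after median-centring and -0.061 to 0.12 with a library left out, and EGR1 was -0.22 to 0.094. The replicate block left these counts at 8, 1, 5, 8, 8 and 1 in the order of the comparisons of the report, with the interaction last. Since the labels do not say that the numbers mark a pairing, this is only a hint. Over the whole table, 2288 genes in OTA against control became 4621 with only the compared groups fitted, 5417 with array weights and 4364 without co-treatment replicate 3, and fell to 1467 without control replicate 2, 1346 without control replicate 3 and 1299 without OTA replicate 3. For co-treatment against OTA 2070 genes became 70 with only the compared groups fitted, 4425 with array weights, 3388 without co-treatment replicate 2 and 945, 653 and 753 without OTA replicate 1, 2 and 3, and over the alternatives that apply to it the interaction count of 431 ranged from 17 to 3082. Counts ranged from 4 to 195 in CW14 against control (47 in the main result), 1521 to 5405 in co-treatment against CW14 (4179) and 1596 to 5902 in co-treatment against control (3729). Scaling moved the balance of calls: co-treatment against OTA had 1063 lower and 1007 higher, against 1335 and 774 after median-centring, co-treatment against control 2172 and 1557, against 1777 and 2160 with upper-quartile scaling, and the interaction 192 and 239, against 262 and 171 after median-centring. The cause of these changes was not tested. Absolute depth is unknown, which limits EGR3 in particular.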
